A study of Mus musculus with 60 samples.

Results

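The liver that had regrown for 14 days after partial hepatectomy (PHX) was compared with normal liver, to see which genes still differed once the early waves of regeneration had passed. The members are all genes at 1 FPKM or more (fragments per kilobase of transcript, scaled to sequencing depth, a level per transcript length) in at least 3 of the 6 samples of this comparison. They number 10022 of the 17473 gene symbols in the liver table. The other 7451 symbols fell below that level and were not tested. All samples are whole liver of wild-type C57BL/6 mice (C57BL/6J in the study's methods), 8 to 10 weeks old per those methods, whose sex was not given in the sources used here. The 3 samples of the Normal liver group carry no surgery. The 3 samples of the PHX-D14 group were taken 14 days after removal of 2/3 of the liver. No transgene and no other agent is named for either group. No sham operation is among the samples used here, so effects of surgery and of lost liver mass cannot be told apart. Whether each sample is a separate mouse is not stated, and the p-values below then measure only the spread between these samples. For its hepatocytes and cultured cells the study calls the 3 samples per group technical repeats. The same table holds 12 further samples, 3 each at 6 h, 24 h, day 3 (D3) and day 7 (D7) after PHX, which entered the fit and are quoted beside the D14 values.

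After PHX the remaining lobes regrow by division of cells that are already differentiated, foremost hepatocytes. Immediate early transcription factors and IL6-STAT3 signaling act first, DNA replication and mitosis follow, and growth stops when the lost mass has been replaced. Hepatocytes go on secreting plasma proteins, detoxifying and handling lipids and glucose throughout, while Kupffer cells (resident macrophages), sinusoidal endothelial cells and stellate cells surround them.

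Reads on genes, recovered from the deposited values, numbered 53249028 to 61311016 in the 6 samples, up to a factor common to all of them. Pearson's r of log2(FPKM + 1) over the members was 0.986 to 0.990 within groups and 0.950 to 0.973 between them. The defining hepatocyte markers Alb, Apoa1, Ttr, Hnf4a and Cps1 were all among the members, in both groups. Within each group, some libraries were highest or lowest in more of the called genes than of all members. Normal liver-2 was the highest normal sample in 178 (80.2%) of the genes called lower at D14, against 32.1% of all members, and Normal liver-3 was the lowest in 64.4% of them, against 31.6%. Of the same genes PHX-D14-1 was the highest D14 sample in 62.6%, against 40.4% of all members, and PHX-D14-2 the lowest in 60.4%, against 35.6%. PHX-D14-3 was the highest D14 sample in 49 (44.5%) of the genes called higher, against 25% of all members, and PHX-D14-1 was the lowest in 48.2%, against 24.8%. The median difference of all members was -0.09 (log2), and was 0.01 after quantile normalization.

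Of the 10022 genes, 332 (3.31%) were called, that is, passed limma's adjusted p under 0.05 with at least a 2-fold difference on the log2(FPKM + 1) scale. These were 110 higher (1.1%) and 222 lower (2.22%) at D14. Counts of called genes in the lists below are to be read against these shares, near which a single call in a longer list lies. On the log2(FPKM + 1) scale 36 genes were at least 4-fold higher and 8 at least 4-fold lower. The added 1 shrinks differences of genes near 0 FPKM on this scale, so these counts do not compare the sizes of rises and falls in FPKM. Tgfbr3l, for example, was 15.2-fold lower in the means (3.67 FPKM in normal liver, 0.241 FPKM at D14) but differed by -1.90 on this scale. In all 332 the 3 D14 values lay outside the range of the 3 normal values. Non-overlap alone was common, since in 13.9% of all genes every D14 sample lay above and in 30.1% every D14 sample lay below normal liver. In the same fit and over the same genes, 17.4% were called at 6 h, 8.34% at 24 h, 5.56% at D3 and 7.13% at D7, each against the same normal samples. At D7 the calls were 605 higher (6.04%) and 110 lower (1.1%). Between D14 and D7, 617 genes (6.16%) were called. The share of calls that were higher at D14 was 33.1%, but 49.0% after quantile normalization (141 higher, 147 lower), 45.0% after median centring (126 and 154), 22.6% with a pseudocount of 0.1 (148 and 507) and 20% with voom on recovered reads (132 and 529). The calls were 91 higher and 147 lower without Normal liver-2, 102 and 273 without Normal liver-3, 109 and 266 without PHX-D14-1, 96 and 176 without PHX-D14-2, and 86 and 209 without PHX-D14-3. Of the calls, 17 higher were under 1 FPKM in all 3 normal livers and 49 lower under 1 FPKM in all 3 D14 livers. These passed the filter only through the group where they were high, which fixed their direction.

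**Figure D1:**
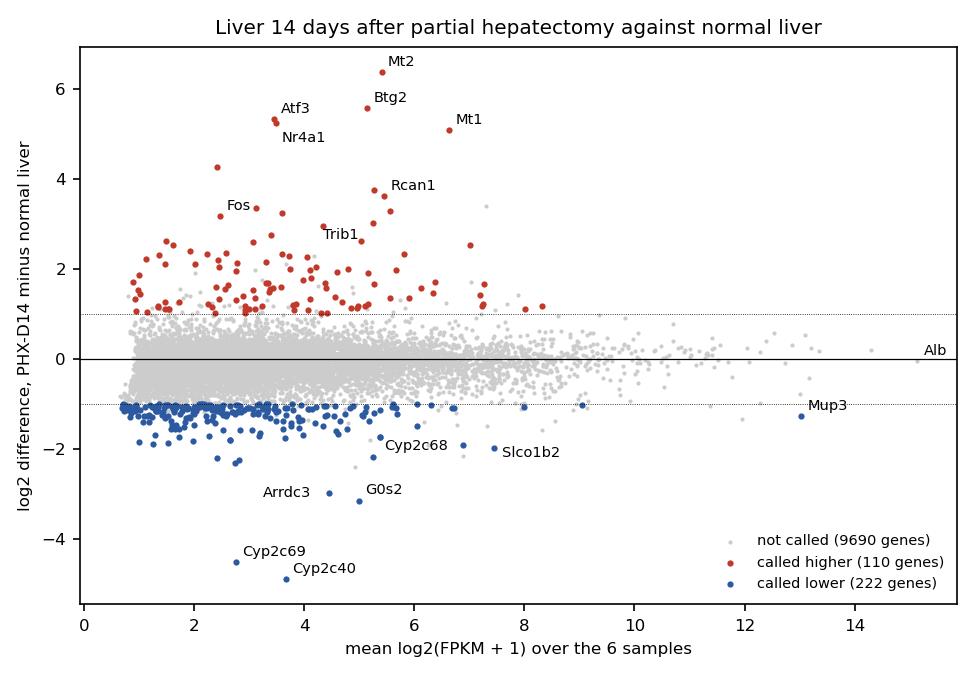
Each point is 1 of 10022 genes, placed by its mean log2(FPKM + 1) over the 6 samples (horizontal) and by the log2 difference of PHX-D14 minus normal liver (vertical). Red points are the 110 genes called higher and blue points the 222 called lower, dotted lines mark a 2-fold difference, and the metallothioneins Mt1 and Mt2 lie at the top, Cyp2c40 and Cyp2c69 at the bottom and Alb near 0.

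The largest rise at D14 was that of the metallothioneins, small cysteine-rich proteins that bind zinc and copper. Mt2 was 2.92, 3.68 and 4.60 FPKM in the 3 normal livers and 325, 296 and 591 FPKM at D14. The lowest D14 value was thus far above the highest normal value, and the means differed 108-fold (log2 difference 6.36 ± 0.47, SE; limma, adjusted p = 3.15e-06). Mt1, its neighbor on chromosome 8, was 12.3, 20.3 and 16.9 FPKM in normal liver and 499, 491 and 784 FPKM at D14, 35.9-fold in the means (log2 difference 5.07 ± 0.48, adjusted p = 1.38e-05). The groups did not overlap, and PHX-D14-3 was the highest sample for both genes. The log2 differences of Mt2 against the same normal samples were 9.62 at 6 h, 8.66 at 24 h, 7.51 at D3 and 6.20 at D7. Mt2 at D14 minus D7 was 0.16 (adjusted p = 0.83), so no further fall from D7 to D14 was detected.

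The 250 bases before the transcription start of these genes are shown because metal response elements, to which the zinc sensor Mtf1 binds, are the best known elements of metallothionein promoters. The sequences are RefSeq's (GRCm38.p6, the same build as mm10), on the strand of the gene, with matches to the element's core, TGCACNC or TGCGCNC on either strand, in capitals. Mt2 (chr8:94172368-94172617, plus strand) held 3 matches, the first bases of which lie 223, 128 and 50 bases before the start. Mt1 (chr8:94178839-94179088, plus strand) held 1. These counts hold only for windows set by the 1 start listed for each gene. Bases after that start were not searched, so the elements of each gene may be more.
Mt2: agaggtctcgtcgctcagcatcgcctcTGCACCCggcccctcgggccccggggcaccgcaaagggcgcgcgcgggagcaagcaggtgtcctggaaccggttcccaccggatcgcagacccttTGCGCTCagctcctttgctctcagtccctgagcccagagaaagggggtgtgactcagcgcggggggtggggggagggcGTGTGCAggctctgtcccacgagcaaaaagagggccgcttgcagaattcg
Mt1: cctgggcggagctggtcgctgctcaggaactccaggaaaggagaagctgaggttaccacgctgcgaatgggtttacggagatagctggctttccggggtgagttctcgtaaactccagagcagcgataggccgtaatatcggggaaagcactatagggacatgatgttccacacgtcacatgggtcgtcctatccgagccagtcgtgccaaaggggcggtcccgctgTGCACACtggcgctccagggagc
The core is short, and 29.8% of the 7831 members with a promoter in the table hold it in this window. Among the genes called higher it was held by 24 of 87 (27.6%), and among those called lower by 43 of 174 (24.7%). A match is only a run of letters, and no binding was measured.

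Immediate early genes encode transcription factors and signaling proteins whose mRNA is made within minutes of a stimulus and normally decays fast. Of 25 listed genes, 21 were members, and 13 of these (61.9%) were called higher and 0 lower, against 1.1% of all genes called higher. The median difference of the 21 was 1.70 (log2), against -0.09 for all genes tested. Of the 13, 2 (Fosb and Egr2) passed the filter only through the D14 samples. The other 4 listed genes (Fosl1, Egr3, Nr4a2 and Nr4a3) were not members. Nr4a1, an orphan nuclear receptor, was 1.23, 0.70 and 0.60 FPKM in normal liver and 68.7, 48.8 and 91.4 FPKM at D14 (log2 difference 5.23 ± 0.41, limma, adjusted p = 3.19e-06). Atf3, a stress-induced bZIP factor, was 0.69, 0.52 and 1.05 FPKM in normal liver and 47.6, 55.6 and 121 FPKM at D14 (5.32 ± 0.65, adjusted p = 0.000117). Both were near 1 FPKM in every normal liver and far higher in every D14 sample. Egr1, a zinc finger factor of the growth factor response, was 4.24, 22.4 and 8.37 FPKM in normal liver and 67.5, 160 and 251 FPKM at D14 (3.75 ± 0.54, adjusted p = 0.000346).

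The AP-1 subunits Fos and Jun were uneven among the D14 livers. Fos was 0.72, 1.19 and 0.69 FPKM in normal liver and 5.52, 5.90 and 103 FPKM at D14, so that PHX-D14-3 alone carried most of the mean. The log2 difference of Fos was 3.17 ± 0.74 (limma, adjusted p = 0.00794) and 1.86 without PHX-D14-3. Jun was 6.87, 5.19 and 6.83 FPKM in normal liver and 24.6, 36.9 and 183 FPKM at D14 (2.96 ± 0.48, adjusted p = 0.000731). At D7 all 3 samples had been near the level of PHX-D14-3, with Fos at 128, 127 and 129 FPKM and Jun at 159, 187 and 170 FPKM. The difference of D14 minus D7 passed the test for both, at -2.95 for Fos (adjusted p = 0.0089) and -1.62 for Jun (adjusted p = 0.021). Their dimerization partners also rose, namely Fosb (0 to 0.0289 FPKM in normal liver and 2.26 to 6.85 FPKM at D14), Fosl2 (0.869 to 1.38 and 7.31 to 15 FPKM) and Jund (35.2 to 45.4 and 113 to 134 FPKM). Ier2, Klf2, Klf6, Egr2 and the matrix protein gene Ctgf were the other called members of the list, with differences of 1.27 to 2.35. Junb did not pass, at 22.9 to 45.7 FPKM in normal liver and 36.2, 62.8 and 248 FPKM at D14.

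Summed over the 25 genes, the level was 204, 239 and 224 FPKM in the normal livers and 578, 864 and 2037 FPKM at D14, against 1860, 1830 and 1760 FPKM at D7. All D14 samples lay above all normal samples, and only PHX-D14-3 reached the D7 level. Handling and the time between death and freezing can also move these genes; neither is recorded in the sources used here, and their part was not tested.

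**Figure D2:**
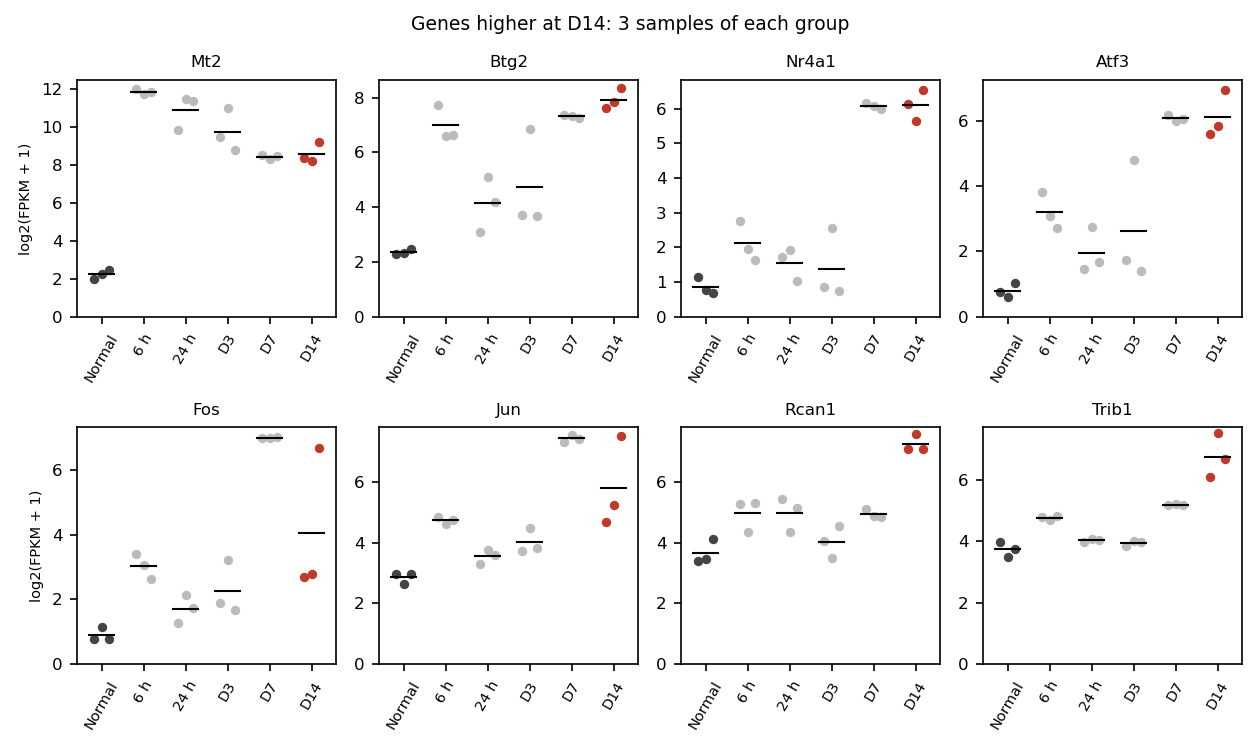
Points are the 3 samples of each of 6 groups, in log2(FPKM + 1), and black lines the group means, with normal liver in dark grey and PHX-D14 in red. Mt2 is high from 6 h on, Nr4a1 and Atf3 are high at D7 and D14, Fos and Jun spread widely at D14 with 1 sample at the D7 level, and Rcan1 and Trib1 are highest at D14.

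Btg2, an antiproliferative gene induced by p53 and by growth factors, had the next largest log2 difference after Mt2. It was 3.88, 4.06 and 4.51 FPKM in normal liver and 193, 226 and 323 FPKM at D14, 59.6-fold in the means and without overlap (log2 difference 5.56 ± 0.66, limma, adjusted p = 8.51e-05). Its promoter is shown because it is 1 of only 3 among the 87 promoters of genes called higher that hold the full cyclic AMP response element TGACGTCA, the others being those of Dusp8 and Ppp1r15a (3.45%, against 2.8% of the members). The window is chr1:134079156-134079405, minus strand, with the element in capitals, 166 bases before the start.
Btg2: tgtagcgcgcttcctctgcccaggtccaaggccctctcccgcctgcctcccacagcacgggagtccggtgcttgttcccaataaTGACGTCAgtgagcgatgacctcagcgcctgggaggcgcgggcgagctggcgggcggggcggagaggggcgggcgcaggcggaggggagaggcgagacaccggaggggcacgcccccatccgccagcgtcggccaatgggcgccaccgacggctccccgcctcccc
Nr4a1, Fos and Atf3 did not hold these letters within 250 bases, which says nothing of the factors that act on them.

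Btg2 belongs to a list of G1 cyclins and brakes of the cell cycle, of which 16 of 18 were members (median 0.53). Of the 16, 5 (31.2%) were called higher and 0 lower, against 1.1% of all genes called higher. The other 4 were Myc, Cdkn1a, Gadd45a and Gadd45g. Myc, the growth-promoting factor of the list, was 1.41, 1.90 and 1.89 FPKM in normal liver and 12, 44.9 and 35.4 FPKM at D14 (3.36 ± 0.57, limma, adjusted p = 0.00098). Cdkn1a, which encodes the cell cycle inhibitor p21, was 2.34, 0.827 and 1.64 FPKM in normal liver and 8.67, 11.6 and 11.4 FPKM at D14 (2.19, adjusted p = 0.0361). Gadd45a and Gadd45g, growth arrest and DNA damage genes, differed by 2.28 and 1.91. None of the cyclins and cyclin-dependent kinases of the list passed, Ccnd1 having a difference of 0.89.

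A few rises were larger at D14 than at D7. Rcan1, an inhibitor of the phosphatase calcineurin, was 9.45, 9.89 and 16.4 FPKM in normal liver, 33.1, 28.2 and 27.6 FPKM at D7 and 136, 192 and 135 FPKM at D14. Its difference at D14 was 3.61 ± 0.32 (limma, adjusted p = 8.84e-06), and D14 minus D7 was 2.32 (adjusted p = 8.8e-05). Trib1, a pseudokinase that regulates C/EBP proteins and hepatic lipid synthesis, was 14.6, 10.3 and 12.6 FPKM in normal liver and 67.4, 183 and 101 FPKM at D14, with 1.57 for D14 minus D7 (adjusted p = 0.00018). Plk3, a stress-responsive polo-like kinase, was 11.6, 17.3 and 13.8 FPKM in normal liver and 117, 214 and 123 FPKM at D14, with 1.46 for D14 minus D7 (adjusted p = 0.0018). In each of these genes every D14 sample lay above every D7 sample.

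Among the remaining large rises, Maff, a small Maf factor, went from 2.04 to 4.64 FPKM in normal liver to 30.8 to 38.9 FPKM at D14, and Rasgef1b, a Ras guanine nucleotide exchange factor, from 2.33 to 3.66 FPKM to 20.1 to 40.9 FPKM. Of 15 tested dual-specificity phosphatases, which switch off MAP kinases, 4 were called higher and 0 lower, a list chosen after values had been seen, and 3 of the 4 (Dusp4, Dusp5 and Dusp8) passed the filter only through D14, so that their direction was fixed. Dusp6, the ERK phosphatase, was 11.5, 10.7 and 14.7 FPKM in normal liver and 71.4, 81.4 and 87.2 FPKM at D14, and Dusp4, Dusp5 and Dusp8 rose from 0.0914 to 0.815 FPKM to 7.59 to 7.87, 6.10 to 6.62 and 3.17 to 6.30 FPKM. All 4 lay above every normal liver in every D14 sample. Per1, a clock gene that also answers to cyclic AMP and glucocorticoids, was 1.25 to 2.12 FPKM in normal liver and 7.45 to 14.1 FPKM at D14 (2.03, adjusted p = 1.25e-05), while 0 of 5 genes of the morning arm and 0 of the other 13 tested genes of the evening arm of the clock were called.

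IL6, the cytokine the study works with, signals through Il6ra, Il6st and STAT3, and in hepatocytes drives the acute phase proteins. Of 18 tested receptor and STAT3 target genes, 5 (27.8%) were called higher and 1 (5.56%) lower (median 0.60), against 1.1% and 2.22% of all genes. Cebpd and Cebpb, transcription factors induced by IL6, were 2.01 to 3.09 and 8.34 to 25.6 FPKM in normal liver and 7.05 to 12.4 and 30.9 to 45.2 FPKM at D14 (1.56, limma, adjusted p = 0.00669, and 1.37, adjusted p = 0.00704). Pim3, a survival kinase, was 20.6, 27.0 and 27.1 FPKM in normal liver and 68.6, 97.0 and 147 FPKM at D14 (1.97). Its relative Pim1 moved the other way, from 15.8, 16.5 and 13.6 FPKM to 2.37, 3.77 and 7.74 FPKM (-1.64 ± 0.29, adjusted p = 0.00125). Cish, a feedback inhibitor of STAT5, was 1.38, 10.8 and 9.87 FPKM in normal liver and 14.9, 51.5 and 22.1 FPKM at D14 (1.99, adjusted p = 0.0285). Without Normal liver-1, the low normal sample of Cish, its difference was 1.24 and no longer passed, nor did it without PHX-D14-2 (1.51) or PHX-D14-3 (2.10). Bcl3, a nuclear IκB protein, rose by 1.18, and Il6ra, Il6st, Stat3 and Socs3 had differences of 0.89, 0.32, 0.84 and 0.90 that did not pass.

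The acute phase list had 3 of 26 tested genes called higher at D14 and 0 lower (median 0.43), against 10 higher at D7, 18 at D3, 22 at 24 h and 20 at 6 h, each against the same normal samples. The 3 were Mt1, Mt2 and Steap4, a ferrireductase, which went from 23.9 to 31.2 FPKM to 57.2 to 97.0 FPKM. The classical secreted acute phase proteins were not called in the fit over 18 samples. Lcn2, lipocalin-2, was 4.64, 3.72 and 7.68 FPKM in normal liver and 18.4, 21.6 and 41.0 FPKM at D14, and missed the threshold (2.10 ± 0.71, limma, adjusted p = 0.0509). Orm2 had a difference of 1.47, Saa1 of 1.00, Saa2 of 1.13 and Hp of 0.46, none past the threshold in that fit. With the 6 samples alone Lcn2 and Orm2 passed (limma, adjusted p = 0.00104 and 0.0201) and Saa2 did not (adjusted p = 0.115). All D14 values of Lcn2 and Orm2 lay above all normal values.

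The deepest falls at D14 were in the Cyp2c cluster, which encodes cytochromes P450 that oxidize fatty acids, steroids and drugs. Cyp2c40 was 43.3, 91.5 and 77.7 FPKM in normal liver and 1.31, 1.75 and 0.978 FPKM at D14, 52.7-fold lower in the means (-4.88 ± 0.60, limma, adjusted p = 0.000118). Cyp2c69 was 22.6, 32.4 and 41.4 FPKM in normal liver and 0.286, 0.350 and 0.599 FPKM at D14, 78.0-fold lower (-4.52 ± 0.50, adjusted p = 4.77e-05). The groups were widely apart in both genes. At D7 they had been at 16.2 to 20.4 and 4.24 to 5.52 FPKM, and D14 minus D7 passed the test in both (-3.01, adjusted p = 0.0019, and -2.06, adjusted p = 0.0068). Cyp2c68 was 188, 276 and 232 FPKM in normal liver and 60.6, 56.7 and 62.1 FPKM at D14 (-1.92). These are near-identical copies whose reads the counting may have shared out between them, so the split between them is uncertain. Of 49 tested cytochromes P450 of families 1 to 4, 4 (8.16%) were called lower and 0 higher (median -0.06), against 2.22% of all genes called lower. The fourth was Cyp2j9, at 3.39 to 5.87 FPKM in normal liver and 0.752 to 0.899 FPKM at D14, which like Cyp2c69 passed the filter only through normal liver. Cyp2e1, the pericentral ethanol-oxidizing enzyme, had a difference of 0.22 (adjusted p = 0.80).

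Sex-biased liver genes, which follow the pattern of growth hormone release, gave fewer calls at D14 than at the times before. Of 35 tested male-biased genes 1 was called lower at D14 (median -0.43), against 14 at D7 (median -1.31) and 20 at D3 (median -2.07), each against the same normal samples. The 1 was Mup3, a major urinary protein, at 13236, 14397 and 11491 FPKM in normal liver and 7066, 4974 and 4423 FPKM at D14 (-1.27 ± 0.35, limma, adjusted p = 0.0195). Without Normal liver-2 or without PHX-D14-3 Mup3 no longer passed (-1.20 and -1.13), and no other gene of the 35 did, and its call was also lost without PHX-D14-2 (-1.22). The 20 tested major urinary protein genes, pheromone carriers that are near-identical copies of each other, had a median of -0.82 at D14 with 2 called lower, against -2.78 with 15 called lower at D7. The second of the 2, Mup6 (-1.16), lost its call when any 1 of the 6 samples was left out (-1.35 to -0.97), and 0 or 1 of the list remained called in those fits. Their summed level was 52760, 39830 and 32520 FPKM in the normal livers and 22030, 31280 and 13640 FPKM at D14, so that every D14 sample lay below every normal sample. Of 12 tested female-biased genes, 1 was called lower and 0 higher, the 1 being Cyp2c69.

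The members held 4 Y-linked genes with housekeeping roles, and 3 of them were called lower at D14. Eif2s3y, a translation initiation subunit, was 29.2, 41.5 and 29.8 FPKM in normal liver and 11.6, 10.3 and 11.6 FPKM at D14 (-1.49 ± 0.17, limma, adjusted p = 8.51e-05). Ddx3y, an RNA helicase, was 13.8, 17.9 and 11.2 FPKM in normal liver and 6.65, 4.58 and 5.86 FPKM at D14 (-1.19). Uty was 3.41, 4.32 and 2.62 FPKM in normal liver and 1.21, 0.895 and 1.15 FPKM at D14 (-1.08), and Kdm5d had a difference of -0.66 that was not called. All 6 samples thus held reads of these genes, and none of the 3 called genes overlapped between groups.

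Slco1b2 encodes the hepatocyte transporter that takes up bile acids and statins. It was 361, 436 and 262 FPKM in normal liver and 93.0, 84.5 and 81.9 FPKM at D14. The mean was 4.09-fold lower at D14 (log2 difference -1.99 ± 0.61, limma, adjusted p = 0.0339). The call was lost when any sample but Normal liver-3 was left out (-2.04 to -1.82), though the groups were far apart. The other 26 tested genes of bile acid synthesis and transport were not called (median of the list -0.26), and the summed level of the list was 4715 to 5102 FPKM in normal liver and 3392 to 3527 FPKM at D14.

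A few calls were in genes of lipid and glucose handling, in both directions. G0s2, which inhibits the triglyceride lipase ATGL, was 67.8, 115 and 106 FPKM in normal liver and 7.63, 4.72 and 23.8 FPKM at D14 (-3.15 ± 0.48, limma, adjusted p = 0.000468). At D7 it had been 82.6, 54.0 and 64.0 FPKM, and D14 minus D7 was -2.64 (adjusted p = 0.00092). Mlxipl, which encodes the glucose-sensing factor ChREBP, was 74.3, 81.4 and 69.1 FPKM in normal liver and 19.7, 21.7 and 24.2 FPKM at D14 (-1.73, adjusted p = 0.0356), with tight groups but a call lost when any 1 of the 6 samples was left out (-1.81 to -1.66). Lpin1, a phosphatidate phosphatase and coactivator of fasting metabolism, rose from 16.3, 11 and 12.1 FPKM to 44.0, 73.2 and 50.5 FPKM (1.99, adjusted p = 0.0227), a call lost without any 1 of Normal liver-2, Normal liver-3, PHX-D14-2 and PHX-D14-3 (differences of 1.78 to 2.05). Of the 27 tested genes of fatty acid synthesis and storage these 3 were called, and of 29 genes of fatty acid oxidation and ketogenesis 0 were called.

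Arrdc3, an arrestin-domain protein that lowers insulin receptor levels, was 54.0, 89.0 and 45.9 FPKM in normal liver and 7.10, 2.45 and 16.1 FPKM at D14 (-2.97 ± 0.46, limma, adjusted p = 0.000494). Its differences at the other times, against the same normal samples, were -4.55 at 6 h, -3.92 at 24 h, -2.82 at D3 and -2.07 at D7. Foxo1, a factor that drives gluconeogenic genes, rose from 4.23 to 4.69 FPKM to 10 to 11.8 FPKM (1.10, adjusted p = 4.07e-05), and was the 1 called of 30 tested genes of glucose metabolism. Got1, cytosolic aspartate aminotransferase, rose from 73.7, 97.2 and 134 FPKM to 250, 208 and 238 FPKM (1.22, adjusted p = 0.00142), and was the 1 called of 33 tested genes of the urea cycle and amino acid breakdown. Apoc2, the activator of lipoprotein lipase, fell from 7.05, 8.32 and 7.85 FPKM to 2.28, 1.44 and 1.33 FPKM (-1.72, adjusted p = 0.000396).

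**Figure D3:**
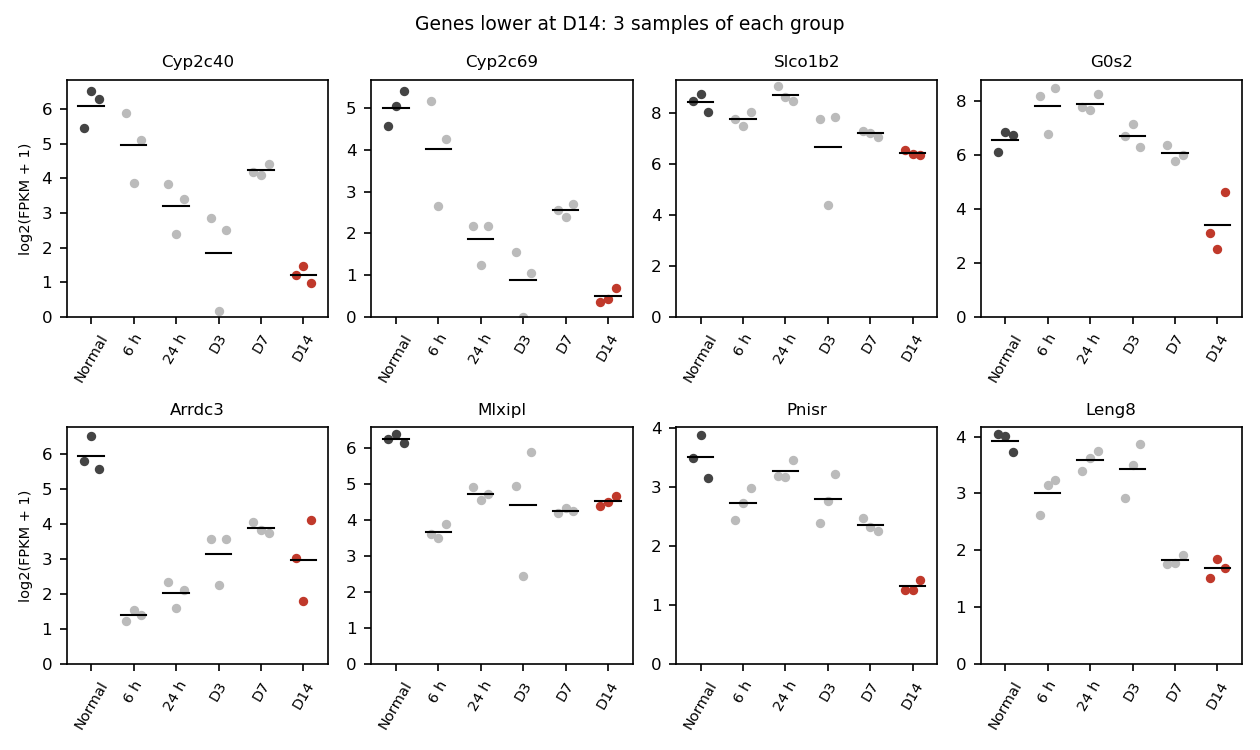
Points are the 3 samples of each of 6 groups, in log2(FPKM + 1), and black lines the group means, with normal liver in dark grey and PHX-D14 in red. Cyp2c40, Cyp2c69, G0s2 and Pnisr are lowest or near their lowest at D14, Arrdc3 and Mlxipl are low from 6 h on, and Leng8 is low at D7 and D14.

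Many of the falls were in genes for nuclear RNA-binding proteins and for zinc finger proteins. Leng8, Pnisr, Prpf39 and Pnn were among the 15 largest falls. The lists for these were chosen after values had been seen, so that their counts describe these samples only. Of 55 tested splicing regulators 15 were called lower and 0 higher (median -0.60), against 2.22% of all genes called lower. Pnisr, an SR-related protein, was 10.2, 13.7 and 7.90 FPKM in normal liver and 1.4, 1.39 and 1.68 FPKM at D14 (-2.19 ± 0.21, limma, adjusted p = 1.35e-05). Leng8, an mRNA export-related gene, was 15.4, 15.1 and 12.2 FPKM in normal liver and 1.86, 2.59 and 2.24 FPKM at D14 (-2.24 ± 0.21, adjusted p = 1.31e-05). Both varied little within groups. Prpf39 and Pnn, a U1-associated and an SR-interacting protein, fell by 1.83 and 1.81, the kinases Clk1 and Clk4, which phosphorylate SR proteins, by 1.76 and 1.27, and the U1 factors Luc7l2 and Luc7l3 by 1.5 and 1.57. Srsf11, Rbm25 and Rbm39 fell by 1.00, 1.01 and 1.26.

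The summed level of the 57 listed splicing genes was 1213 to 1449 FPKM in normal liver and 888 to 927 FPKM at D14. It was highest in Normal liver-2, and 11 to 16 of the splicing genes were called lower when any 1 sample was left out. Of 160 tested genes named Zfp and a number, 25 were called lower and 0 higher (median -0.49). Of the 25, 15 were under 1 FPKM in all 3 D14 livers and passed the filter only through normal liver, so that the count is in part set by the filter. They are weakly expressed, as Zfp942 with 5.32, 5.09 and 3.71 FPKM in normal liver and 1.16, 0.631 and 0.981 FPKM at D14 (-1.57, limma, adjusted p = 8.39e-06). With a filter at 5 FPKM only 3 of them were called, and with a pseudocount of 0.1 the number was 61. Fam193b, a gene of little known function, fell from 12.4, 17.1 and 12.7 FPKM to 2.02, 1.83 and 2.14 FPKM (-2.32 ± 0.21, adjusted p = 8.39e-06).

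Markers of cells other than hepatocytes were counted, since whole liver holds them too. In bulk samples fewer cells of a type and less RNA per cell cannot be told apart. Of 20 Kupffer cell genes, all tested, 3 were called lower and 0 higher at D14 (median -0.70), against 15 higher at D7 (median 1.83). Clec4f, a lectin found on Kupffer cells, was 37.5, 60.4 and 53.9 FPKM in normal liver, 140, 96.4 and 99.4 FPKM at D7 and 21.8, 24.8 and 15.6 FPKM at D14 (-1.25 ± 0.24 against normal, limma, adjusted p = 0.00222, and -2.38 against D7, adjusted p = 3.4e-06). Vsig4, a complement receptor of these cells, was 17.3, 25.8 and 21.0 FPKM in normal liver and 8.45, 8.26 and 5.31 FPKM at D14 (-1.43, adjusted p = 0.00601). D14 samples of both genes lay below all normal samples, and the defining markers Timd4 and Cd5l had differences of -0.82 and -0.74 that did not pass. The summed level of the list was 625 to 846 FPKM in normal liver and 577 to 623 FPKM at D14.

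The third called Kupffer gene was the mannose receptor Mrc1, which the sinusoidal endothelial list holds as well. It was 8.49, 9.53 and 8.09 FPKM in normal liver and 3.56, 3.38 and 2.99 FPKM at D14 (-1.17 ± 0.17, limma, adjusted p = 0.000351). Fcgr2b, the endothelial Fc receptor, was 33.9, 37.9 and 27.4 FPKM in normal liver and 16.1, 15.9 and 14.4 FPKM at D14 (-1.04). The other 21 tested endothelial genes were not called (median of the list -0.25), Stab2, Lyve1 and Gpr182 having differences of -0.30, 0.23 and -0.25. Fcgr2b was no longer past 2-fold after quantile normalization (-0.98) or median centring (-0.95), nor without Normal liver-2 (-0.94) or PHX-D14-3 (-0.99). Among stellate cell and fibroblast genes Lrat, which stores retinol as esters, fell from 2.3, 6.26 and 3.13 FPKM to 1.60, 0.635 and 1.25 FPKM (-1.12, but -0.80 and not called without Normal liver-2, and -0.94 and not called without PHX-D14-2), and the actin-binding Tagln rose from 3.18 to 3.45 FPKM to 8.83 to 10.1 FPKM (1.3, adjusted p = 0.00596). Col5a3 was lower (-1.25) and the only called gene of 20 tested extracellular matrix genes (5.0%, against 3.31% of all genes). The summed level of the matrix list was 283 to 376 FPKM in normal liver and 488 to 557 FPKM at D14.

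Summed markers of T and NK cells and of neutrophils were low but above normal liver in every D14 sample. Those of monocytes and recruited macrophages, of MHC class II and dendritic cells and of B and plasma cells overlapped between groups. Xbp1 and Sdc1 made up nearly all of the B and plasma cell sum in every normal and D14 sample. That sum mostly followed these genes, so its overlap cannot tell whether B cells differed. Of 5 tested T and NK cell genes 4 were called higher (median 1.06), and their 14 other listed genes in the table, with the defining Cd3d, Cd3e and Cd3g among them, were below the filter. Gzmb and Nkg7, 2 of the 4, were under 1 FPKM in all normal livers and passed the filter only through D14, which fixed their direction. Ccl5, a chemokine of these cells, was 1.79, 1.95 and 2.27 FPKM in normal liver, 21.1, 28.8 and 24.3 FPKM at D7 and 11.3, 6.00 and 7.79 FPKM at D14 (1.60 ± 0.19 against normal, limma, adjusted p = 0.000116). Gzma, a granzyme, was 0.764, 1.20 and 0.748 FPKM in normal liver and 4.31, 1.60 and 3.85 FPKM at D14 (1.10). Gzma was not called without PHX-D14-1 (0.91) or without PHX-D14-3 (0.97), when 2 of the 5 genes remained past the threshold. The summed level of the list was 6.23 to 8.01 FPKM in normal liver and 18.7 to 28.1 FPKM at D14.

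The neutrophil gene S100a9, a calgranulin subunit, was 1.35, 3.70 and 2.18 FPKM in normal liver, 69.5, 34.0 and 44.7 FPKM at D7 and 14.7, 12.7 and 13 FPKM at D14 (2.14, limma, adjusted p = 0.0153 against normal). It was 1 of 2 called among 7 tested neutrophil genes with Retnlg, which passed the filter only through D14, a count that fell to between 0 and 1 when single samples were left out, S100a9 being lost without Normal liver-1 (1.90). The neutrophil sum was 55.0, 51.4 and 79.1 FPKM at D14, most of it from listed genes other than S100a9 and Retnlg. At 6 h that sum was 2799 to 3667 FPKM while S100a9 was 23.9 to 24.6 FPKM. The sum thus did not follow S100a9, and its level at D14 cannot tell whether neutrophils differed. Interferon and antigen presentation genes, which were raised at D7, were mostly not called at D14. Of 42 tested interferon response genes 1 was called higher and 2 lower (median 0.01), against 29 higher at D7. Cd74, the MHC class II invariant chain, was 46.5, 59.8 and 93.5 FPKM in normal liver, 734, 579 and 545 FPKM at D7 and 86.1, 100 and 100 FPKM at D14. D14 minus D7 was -2.68 for Cd74 (adjusted p = 3.1e-07), while D14 minus normal was 0.57 (adjusted p = 0.0795). Iigp1, an interferon-induced GTPase, even lay below normal, at 161, 157 and 141 FPKM in normal liver and 76.2, 67.6 and 69.7 FPKM at D14 (-1.09, adjusted p = 0.00137), after 736, 632 and 579 FPKM at D7.

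The remaining marker lists gave 0 calls at D14, among 13 tested monocyte and recruited macrophage genes, 8 MHC class II and dendritic cell genes, 6 cholangiocyte genes, 6 red blood cell genes, 5 adipocyte genes, 4 fetal liver genes, 3 B and plasma cell genes, 3 mesothelium genes and 1 skeletal muscle gene. Lists this small would hold few calls or none at the 3.31% of all genes called. Their summed levels were nevertheless above normal liver in every D14 sample for the cholangiocyte list (40.3 to 52.3 FPKM in normal liver and 66.2 to 75.7 FPKM at D14), the fetal list (75.9 to 102 and 128 to 161 FPKM) and the mesothelium list (128 to 169 and 339 to 420 FPKM). The keratin gene Krt8, of the mesothelium list, was 124, 144 and 166 FPKM in normal liver and 335, 414 and 408 FPKM at D14, and missed the threshold with all 18 samples (1.41, limma, adjusted p = 0.0515) but passed with the 6 samples alone (adjusted p = 0.00023). Krt8 made up nearly all of the mesothelium sum in each of the 6 samples, so that sum mostly followed this gene. It cannot tell whether mesothelial cells differed. Of 2 tested exocrine pancreas genes the elastase Cela1 was called lower (-1.05), a call lost after quantile normalization and median centring (both -0.97) and without Normal liver-3 (-0.97) or PHX-D14-3 (-0.95). The chaperone gene Hsp90b1 of the endoplasmic reticulum fell from 396, 420 and 299 FPKM to 166, 197 and 160 FPKM (-1.08 ± 0.19, limma, adjusted p = 0.00125; -0.98 and not called without Normal liver-2), and with Atf3 it made the 2 calls among 24 genes of amino acid and endoplasmic reticulum stress. Ugt2b5, a glucuronosyltransferase, was the 1 call among 41 tested conjugation enzymes (-1.03), lost without Normal liver-2 (-0.81) or PHX-D14-3 (-0.96). At 2.44% of that list, this was near the 2.22% of all genes called lower.

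**Figure D4:**
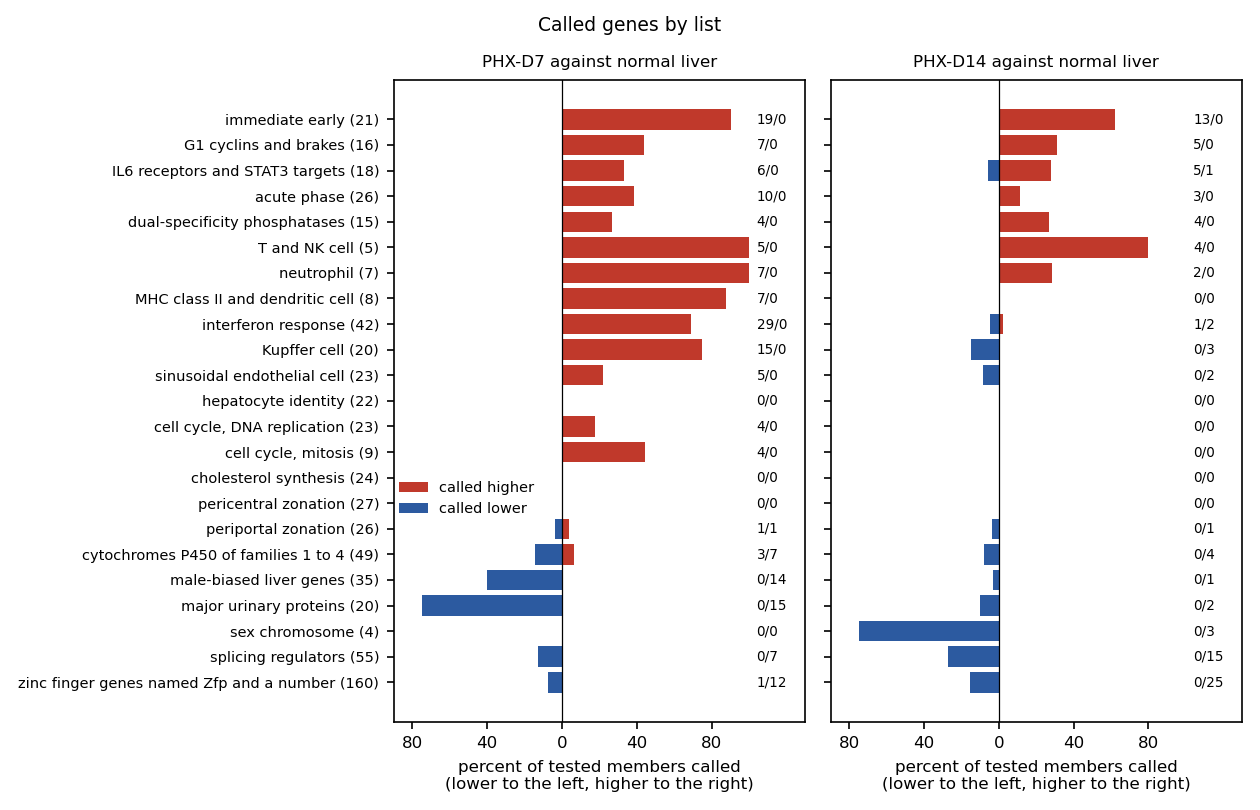
Bars give the percent of the tested members of each list (their number in brackets) that were called higher (right, red) or lower (left, blue) at D7 and at D14 against the same normal samples, with the counts higher/lower at the right. Immediate early genes are called higher at both times (19 at D7 and 13 at D14), immune lists at D7 mostly, and splicing and Zfp genes lower at D14 (15 and 25).

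**Figure D5:**
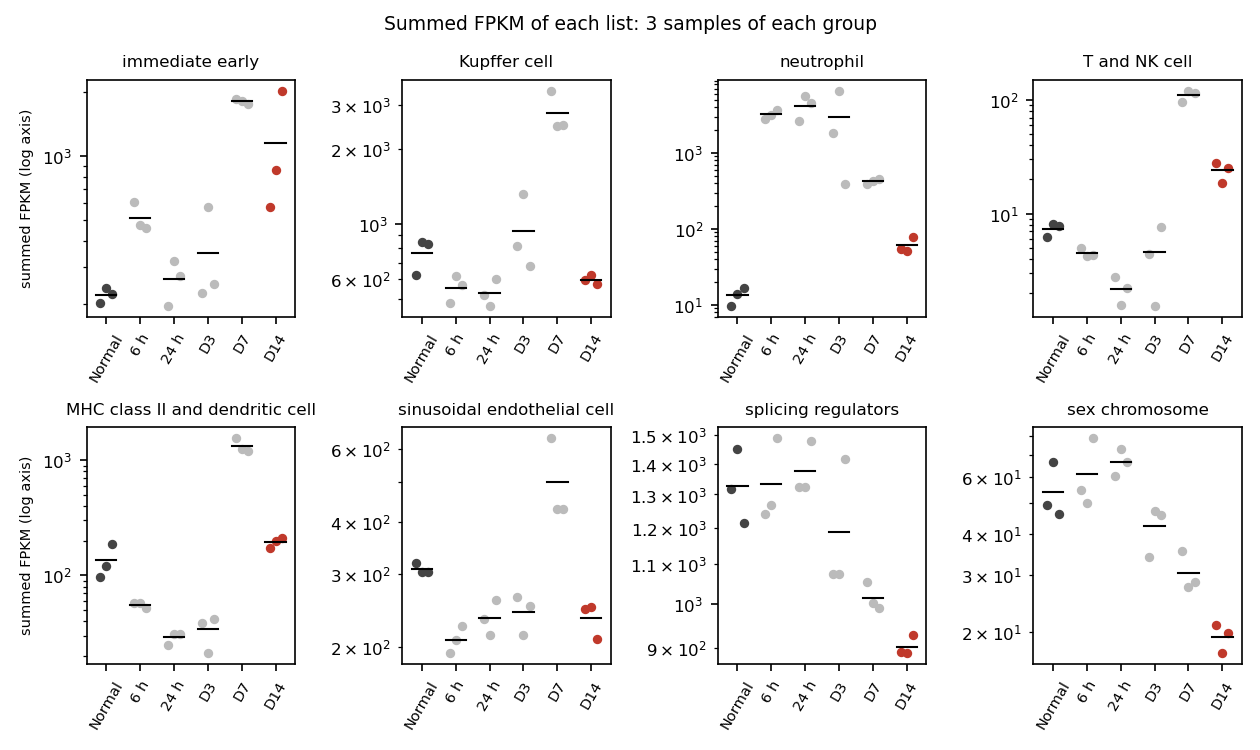
Points are the summed FPKM of all listed genes in each of the 3 samples of a group, on a log axis, and black lines the group means, with normal liver in dark grey and PHX-D14 in red. At D14 the Kupffer cell sum is 577 to 623 against 625 to 846 in normal liver, and the neutrophil and T and NK cell sums stay above normal liver. Most of the neutrophil sum at D14 comes from listed genes other than S100a9 and Retnlg. The splicing and Y-linked (sex chromosome) sums at D14 are the lowest of the 6 groups.

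The main functions of hepatocytes gave few or no calls at D14, when 3.31% of all genes were called. At that share lists of these sizes would hold few calls or none, so the counts do not set them apart. Of 22 hepatocyte identity genes, all tested, 0 were called (median 0.04). Alb was 33690 to 40900 FPKM in normal liver and 30895 to 40131 FPKM at D14, with a difference of -0.04 ± 0.29 (limma, adjusted p = 0.94). Also without a call were all 24 cholesterol synthesis genes (median -0.23, after 19 called lower at 24 h), all 38 complement and coagulation genes (median 0.04), all 27 pericentral genes (median -0.01), all 20 oxidative stress response genes (0.18) and all 18 iron handling genes (0.11). Of 26 periportal genes 1 was called, the apolipoprotein Apoc2 above. A missed threshold does not show that a gene was equal between groups.

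The cell cycle lists had 0 calls at D14, among 23 tested DNA replication genes (median -0.23) and 9 mitosis genes (median 0.17), 4 and 4 of which were called higher at D7. At the 3.31% of all genes called at D14, lists of these sizes would hold few calls or none. At an adjusted p under 0.05 with no fold threshold, limma called 1 replication gene lower, the GINS subunit gene Gins1 (-0.68, adjusted p = 0.0262), named here for that count. Pcna, the replication clamp, was 21.9, 25.5 and 21.4 FPKM in normal liver, 43.9, 35.9 and 35 FPKM at D7 and 18.8, 15.7 and 18 FPKM at D14, with -1.08 for D14 minus D7 (adjusted p = 0.0027) and -0.37 for D14 minus normal (adjusted p = 0.286). The remaining 21 mitosis genes in the table were below the filter. The 4 transcription factors the study followed up, Barx2, Elf3, Mxd3 and Foxm1, were below it too. Barx2 was listed at 0 in all 3 normal livers and at 0.0195, 0.0629 and 0 FPKM at D14. Elf3 was 0.204 to 0.334 FPKM in normal liver and 0.380 to 0.679 FPKM at D14, Mxd3 0.221 to 0.359 and 0.405 to 0.841 FPKM, and Foxm1 0.0862 to 0.283 and 0.211 to 0.452 FPKM. Elf3 and Mxd3 did not overlap between groups, but all were too low to be tested.

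A further 78 genes were at least 2-fold different and not called, and 65 of them (37 higher, 28 lower) were called when the 6 samples were fitted alone. The fit over 18 samples shares 1 spread among all groups. The median SD of log2(FPKM + 1) was 0.25 at D3 against 0.13 at D14, 0.15 in normal liver and 0.10 at D7. That of D7 was the lowest of the 6 groups. Igfbp1, a fasting- and injury-induced binding protein for insulin-like growth factors, was 65.5, 27.3 and 59.7 FPKM in normal liver and 559, 449 and 533 FPKM at D14. Its difference of 3.40 had an adjusted p of 0.0594 in limma over 18 samples and of 9.29e-05 over 6. Osgin1, a target of the oxidative stress factor Nrf2, was 245, 216 and 287 FPKM in normal liver and 56.5, 51.8 and 56.1 FPKM at D14 (-2.16, adjusted p = 0.0885 and 1.21e-05). The male-biased transporter gene Slco1a1 was 159, 175 and 110 FPKM in normal liver and 49.1, 34.3 and 32.9 FPKM at D14 (-1.90, adjusted p = 0.127 and 0.000267), and male-biased Hsd3b5, a steroid dehydrogenase, 242, 285 and 274 FPKM and 103, 167 and 48.5 FPKM (-1.49, adjusted p = 0.391 and 0.0123). These 4 genes were picked with their levels known, and in each of them the groups did not overlap. With 6 samples alone 6 male-biased genes and 4 major urinary protein genes were called lower.

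Some features that the comparison did not use were set side by side for the called genes, as a description. The genes called higher had a median level of 4.74 FPKM in normal liver, those called lower 7.70 FPKM and all members 7.92 FPKM. Their median genomic span (RefSeq, 107, 211 and 9662 genes matched by symbol) was 10.8 kb for genes called higher, 17.8 kb for genes called lower and 22.2 kb for all members. The median GC content of the 250 bases before the start was 62.8%, 56.0% and 60% in the same order. An AP-1 site (TGANTCA) was held by 5.75% of promoters of genes called higher, 4.6% of those called lower and 4.37% of those of all members, and a STAT site (TTCNNNGAA) by 9.2%, 4.6% and 5.99%, both strands searched. These motifs were chosen with the results known and the differences in share rest on a few genes each, 5 for AP-1 and 8 for STAT among those called higher.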

How the data were processed

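Whole-liver mRNA was sequenced with 3 samples per group. Per the submitters' processing notes the tools were TopHat 1.4.1 and Cufflinks 1.3.0 with build mm10, with no role given for each. The authors deposited 1 value per gene and sample with no unit named, and that these are FPKM was read from the values. Values were taken as log2(FPKM + 1). The filter asked for 1 FPKM in 3 of the 6 samples. Then limma 3.58.1 with an intensity trend was fitted to all 18 liver samples in 6 groups, with Benjamini-Hochberg adjustment over 10022 genes. A call needed an adjusted p under 0.05 and a 2-fold difference. The smallest exact two-sided permutation p for 3 against 3 samples is 0.1. Named genes were the 15 largest rises and 15 largest falls among calls with non-overlapping groups, the 2 largest of each direction per list, the 2 most abundant genes of lists without a call, and the 4 factors the study followed up; others were named after their values were seen. 1 gene under this rule is not reported here. The members and lists were chosen with earlier results of these data known. Recovered reads served the voom alternative. The fit was tested on simulated data. Samples shared replicate numbers. Deviations of same-numbered samples correlated at -0.083, -0.22 and 0.013, against -0.279 to 0.327 for other pairs, so no pairing by number was seen. With 3 samples per group these values cannot exclude a pairing.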

Additional observations from a re-analysis of the deposited data

Results flagged for a closer look

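The named genes below differed between D14 and D7 by at least 2-fold with an adjusted p under 0.05 (limma, Benjamini-Hochberg over all genes, log2 difference of D14 minus D7), a contrast in which 6.16% of all genes passed. The D7 samples had the lowest median SD of the 6 groups, and whether they are separate mice is not stated. Those higher at D14 than at D7 were Rcan1 (2.32), Trib1 (1.57), Plk3 (1.46) and the mucin-associated peptide gene Tff3 (1.43). Among immediate early and IL6 target genes the differences were -2.95 for Fos, -1.62 for Jun, -2.21 for Pim1 and -1.06 for Cebpd. Among metabolic genes they were -3.01 for Cyp2c40, -2.06 for Cyp2c69, -1.34 for Cyp2c68 and -2.64 for G0s2. The splicing-related Pnisr differed by -1.04, 8430408G22Rik by -2.11 and the replication clamp Pcna by -1.08.

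Among genes of macrophages and endothelium the differences were -2.58 for Vsig4, -2.38 for Clec4f, -1.63 for Mrc1 and -1.44 for Fcgr2b. The stellate cell gene Lrat differed by -1.03. Leukocyte genes differed by -1.75 (S100a9), -1.33 (Retnlg), -1.49 (Ccl5) and -2.81 (Gzma), and the antigen presentation genes Cd74 and H2-Aa by -2.68 and -2.74. The interferon-induced Cxcl10 and Iigp1 differed by -1.59 and -3.17, and the globin gene Hbb-bs by -3.75.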

How the results depend on the processing

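Of the 332 calls (110 higher, 222 lower), the total was 655 with a pseudocount of 0.1 (507 lower), 661 with voom on recovered reads (529 lower) and 214 with a filter at 5 FPKM (126 lower). Quantile normalization gave 147 lower. Without a fold threshold there were 1785 calls (372 higher, 1413 lower), at 1.5-fold 1118 (229 and 889) and at 4-fold 44 (36 and 8). These thresholds were set on the log2(FPKM + 1) scale. Leaving out 1 sample gave totals of 238 to 375, with 86 to 109 higher and 147 to 273 lower, the 147 being without Normal liver-2. Called in every such fit were 72 genes higher and 123 lower. With the 6 samples alone 397 were called. The fit with a replicate block gave 330 calls (110 higher, 220 lower), and all 62 called named genes kept their call in it. No named gene that was called in the main fit or in an alternative reversed its direction there, while 120 of the gene values fell below the threshold and 4 rose past it. Changes of sign in genes called in neither were not counted. The cause of these shifts was not tested. Depth was alike in the 6 samples, but genes under 1 FPKM were not tested.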

Other observations

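Several called genes outside the lists were named after their values were seen. Actg1, a cytoskeletal actin, was 50.7, 43.8 and 65.4 FPKM in normal liver and 246, 328 and 366 FPKM at D14. Foxo3, a stress-responsive forkhead factor, was 7.06, 9.93 and 8.09 FPKM in normal liver and 38.3, 38.7 and 20.5 FPKM at D14. Txnip, a thioredoxin-binding arrestin, was 28.1, 52.8 and 45.0 FPKM in normal liver and 11.4, 6.44 and 27.0 FPKM at D14 (-1.60, limma, adjusted p = 0.0325), after a difference of 1.31 at D7.

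Heat shock genes did not move as 1 group. The cochaperone gene Dnajb1 was 8.50, 7.08 and 7.18 FPKM in normal liver and 22.3, 66.8 and 14.4 FPKM at D14, while the chaperone gene Hsp90aa1 was 80.9, 79.0 and 72.1 FPKM and 28.1, 45.3 and 27.5 FPKM. The scavenger receptor gene Msr1 of macrophages was 6.76, 9.50 and 6.70 FPKM in normal liver and 2.87, 1.72 and 2.02 FPKM at D14. In all of these genes the groups did not overlap.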
